A study of Mus musculus with 12 samples.

Results

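The small leucine-rich proteoglycans (SLRPs) were followed in 3T3-L1 fibroblasts, a mouse embryonic fibroblast line, as 8 genes chosen by symbol. They were Dcn (decorin), Bgn (biglycan), Aspn (asporin), Lum (lumican), Fmod (fibromodulin), Prelp, Ogn (osteoglycin), and Podn (podocan). These were 8 of the 56941 genes in the count table, and all 8 were among the 14810 genes that passed the filter on low counts. SLRPs are secreted proteins whose leucine-rich repeats fold into a curved solenoid that binds collagen fibrils, and most carry chondroitin, dermatan, or keratan sulfate chains. In the dermis, which is built largely by fibroblasts, they set fibril spacing and diameter, and several bind TGF-β or growth factor receptors. Soluble biglycan and decorin are also known as ligands of the innate immune receptors TLR2 and TLR4.

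The study asked how type 2 cytokines act on fibroblasts in an inflammatory setting, and 12 libraries of polyadenylated RNA, 3 in each of 4 conditions, were made for that purpose. The cells were wild type 3T3-L1 in all conditions, so the results describe a single cell line in culture, and all libraries carried the same batch date. Control cells received none of the cytokines. Treated cells received IL-4 and IL-13, each at 50 ng/mL (together IL-4/13), a cocktail called Inf, or both (IL-4/13 + Inf), each for 24 hours. The cocktail was made of 20 ng/mL TNF-α, 50 ng/mL IL-17A, and 0.5 ng/mL IL-1β. None of the sources used here says that libraries of a condition came from separate cultures, so the p-values measure the spread between libraries, which may be technical. Bulk RNA does not separate fewer cells from less RNA per cell.

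Total counts ranged from 13446005 to 20775769 per library. Levels are given as CPM, that is, counts scaled to library size over the tested genes after TMM normalization, and levels of different genes are compared only as CPM per kilobase of exon. The cells carried the label of fibroblasts, and all 8 fibroblast markers checked, which included Col1a1, Pdgfra, and Vim, were above the filter, with a summed level of 9173 to 16601 CPM in the 12 libraries. The summed fibroblast level was lowest with IL-4/13 + Inf, at 9173 to 9408 CPM, and highest in control, at 14544 to 16601 CPM. Single markers differed. Col1a1, Col1a2, Col3a1, Thy1, Vim, and S100a4 had lower means with IL-4/13 + Inf than in control. Pdgfra instead had 196 CPM in control, 385 with Inf, and 225 with IL-4/13 + Inf, and Pdgfrb had 269, 481, and 282. Markers of other cells were low. The 9 adipocyte markers summed to 28.1 to 41.8 CPM, with 2 of 9, Fabp4 and Pparg, above the filter and Lep at 0 in every library. Fabp4 had 11.3 CPM in control, 16.2 with IL-4/13, 30.1 with Inf, and 19.4 with IL-4/13 + Inf. Pparg went the other way with Inf, at 18.1, 21.5, 7.71, and 10.8 CPM in the same order. The 11 macrophage markers summed to 6.16 to 11.8 CPM, with 5 of 11 above the filter and C1qa and Tyrobp at 0. Mrc1 and Aif1 had 0.181 and 0.737 CPM in control and 2.11 and 2.20 with Inf, while Csf1r had 3.54 and 2.64. Endothelial and epithelial markers reached at most 2.19 and 1.25 CPM, with Emcn, Krt5, and Epcam at 0. The 11 cartilage, tendon, and bone markers summed to 103 to 139 CPM, nearly all of it Sox9, Runx2, and Mkx, while the cartilage genes Acan and Col2a1 had at most 4 and 7 counts in a library. The part of these differences in the SLRP results was not tested.

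In control fibroblasts, biglycan was by far the most abundant SLRP transcript. Its level of 596 ± 16.4 CPM per kilobase (SD, n = 3) stood at percentile 99.6 of the tested genes with a known length. Aspn followed at 75.3 ± 6.17, Ogn at 50.7 ± 2.91, and Dcn at 17.7 ± 0.738 CPM per kilobase, and the ranges of these neighbours in the order did not overlap. Prelp stood at 4.98 ± 0.303 CPM per kilobase, while Fmod at 1.22 ± 0.168 and Lum at 0.921 ± 0.124 were near the low end of tested genes, at percentiles 21.6 and 18.2. Podn, at 0.155 ± 0.0792 CPM per kilobase and 8 to 17 counts in a library, was barely detected. Together the 8 genes summed to 747 ± 18.0 CPM per kilobase, of which biglycan held 79.8% ± 1.11. Biglycan's share depended on the exon length used, since the union of its annotated exons is 6.099 kb and its longest transcript 2.666 kb. With the longest transcript, its share in control was 89.7% and that of decorin 1.45% in place of 2.37%, while the order of the 8 genes stayed the same in each of the 4 conditions.

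Most SLRP genes lie in clusters, and their positions are given here from the GENCODE M21 annotation of GRCm38. Dcn and Lum are neighbours on chromosome 10, followed by the SLRP genes Kera and Epyc. Aspn and Ogn lie on chromosome 13 in the order Ecm2, Aspn, Omd, Ogn, all on the plus strand and within the span of Cenpp, a centromere protein gene on the opposite strand that shares 0.297% of Aspn's exon bases and none of Ogn's. Prelp and Fmod are neighbours on chromosome 1 on opposite strands, next to Optc, and the antisense gene Gm15851 covers 9.68% of the exon bases of Prelp. Bgn lies on the X chromosome and Podn on chromosome 4. The RefSeq promoters of 4 members are printed. Aspn, Fmod, and Ogn are shown because they had the largest falls with Inf, and Prelp because it rose when IL-4/13 was added to Inf. Each line is the 250 bases before the annotated start in GRCm38.p6, 5′ to 3′ on the gene's own strand, and capitals mark matches to the motifs searched. Aspn is chr13:49544193-49544442 (plus strand), Ogn is chr13:49607765-49608014 (plus strand), Fmod is chr1:134037004-134037253 (plus strand), and Prelp is chr1:133921402-133921651 (minus strand).
Aspn: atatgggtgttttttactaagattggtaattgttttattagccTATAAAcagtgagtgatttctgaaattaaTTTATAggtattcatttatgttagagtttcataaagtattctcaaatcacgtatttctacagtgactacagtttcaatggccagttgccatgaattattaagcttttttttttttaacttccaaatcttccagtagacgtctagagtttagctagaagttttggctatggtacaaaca
Ogn: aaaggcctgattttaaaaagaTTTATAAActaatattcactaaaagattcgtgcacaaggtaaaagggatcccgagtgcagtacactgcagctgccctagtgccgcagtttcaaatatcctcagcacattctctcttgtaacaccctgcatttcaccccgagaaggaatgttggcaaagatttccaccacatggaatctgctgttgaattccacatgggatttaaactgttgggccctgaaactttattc
Fmod: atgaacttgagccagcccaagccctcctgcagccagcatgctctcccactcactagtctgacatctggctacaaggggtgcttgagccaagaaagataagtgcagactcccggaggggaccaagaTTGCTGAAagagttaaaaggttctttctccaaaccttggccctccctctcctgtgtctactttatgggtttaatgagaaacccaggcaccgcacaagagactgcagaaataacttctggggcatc
Prelp: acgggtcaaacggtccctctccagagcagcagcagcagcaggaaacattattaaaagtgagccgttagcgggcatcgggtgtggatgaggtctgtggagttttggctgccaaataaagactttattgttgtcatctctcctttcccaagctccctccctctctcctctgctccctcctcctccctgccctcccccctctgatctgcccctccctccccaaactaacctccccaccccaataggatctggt
Both strands were searched for AP-1 (TGANTCA), STAT6 (TTCNNNNGAA), C/EBP (TTGCNNAA), the TATA box (TATAAA), and an NF-kB pattern whose letters are not printed here. In Aspn the capitals are 2 separate TATA matches, which begin 207 and 178 bases before the start. In Ogn they are 2 overlapping TATA matches on opposite strands, which begin 229 and 227 bases before the start. In Fmod they are 1 C/EBP match that begins 125 bases before the start. The Prelp window held no match to any of these motifs, which says nothing of the factors themselves. Among 32851 promoter windows of the same length, 12.4% held the TATA letters, 9.56% the C/EBP letters, 7.25% an NF-kB match, 6.75% the AP-1 letters, and 5.85% the STAT6 letters. The Bgn window (chrX:73483351-73483600, plus strand) held 1 STAT6 match, which begins 149 bases before the start and reads the same on both strands in these letters. A match is a string of letters and not a bound site.

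**Figure D1:**
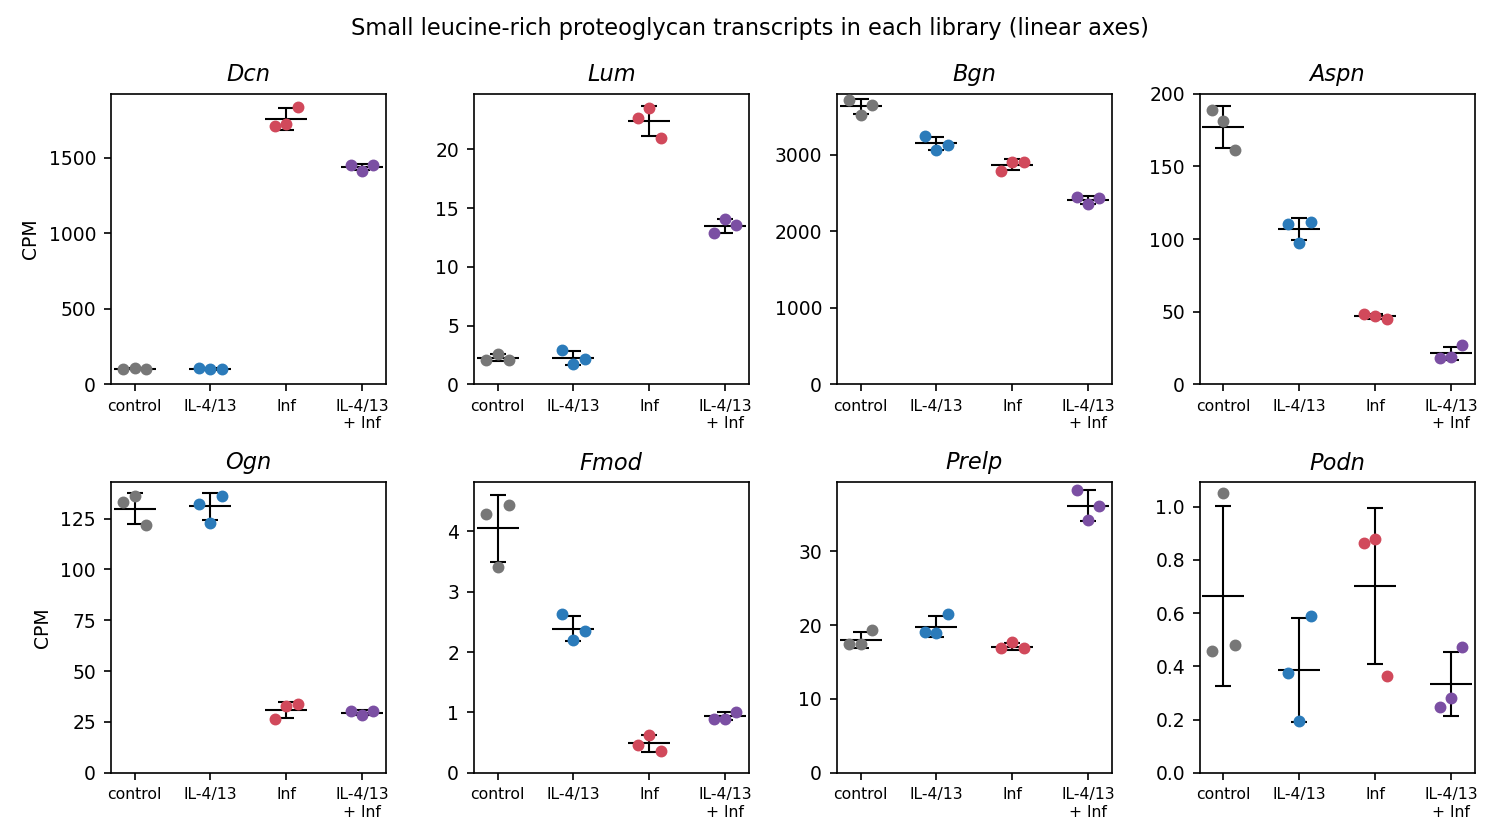
Each panel plots 1 SLRP gene, with the level in CPM on a linear axis that starts at 0 against the 4 conditions. Points are single libraries, the long bar is the mean, and the error bars are 1 SD (n = 3). Dcn and Lum stand high in both conditions with Inf, Aspn, Ogn, and Fmod stand low in them, and Prelp stands apart with IL-4/13 + Inf alone at 34.2 to 38.3 CPM.

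Inf moved the SLRP transcripts in opposite directions. Decorin and lumican rose by 4.09 and 3.31 on the log2 scale, the latter a 9.95-fold change, while fibromodulin, osteoglycin, and asporin fell by factors of 8.04, 4.18, and 3.79, and biglycan fell by a factor of 1.26. A gene was called at a Benjamini-Hochberg adjusted p below 0.05, from edgeR's quasi-likelihood test over all tested genes, and a log2 fold change beyond 0.25. Of the 8 genes, 2 were upregulated, where 16.3% of all tested genes were, and 4 were downregulated, where 15.3% were. The median log2 fold change was −0.20 over the 8 genes and 0.01 over all tested genes. Prelp and Podn were not called.

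Among the class I SLRPs, decorin, which binds collagen fibrils and TGF-β, had 102, 108, and 99.7 CPM in the control libraries and 1708, 1722, and 1839 CPM with Inf. Every Inf library was thus far above every control library. The log2 fold change was 4.09 ± 0.046 (SE, edgeR quasi-likelihood test, adjusted p = 2.8e-33), with rank 102 from the highest of 14810 genes. Biglycan had 3722, 3524, and 3652 CPM in control and 2795, 2912, and 2911 CPM with Inf, without overlap. Its change was small, at −0.34 ± 0.035 on the log2 scale (adjusted p = 2.4e-09). Asporin binds collagen through the same face as decorin and carries a run of aspartate residues in place of a glycosaminoglycan chain. It had 189, 181, and 161 CPM in control and 48.3, 47.0, and 45.0 CPM with Inf, and the groups did not overlap. Its log2 fold change was −1.92 ± 0.11 (adjusted p = 2.0e-08).

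The class II SLRPs, which can carry keratan sulfate, were split. Lumican, known for its part in corneal transparency, had 2.06, 2.60, and 2.10 CPM in control and 22.7, 23.5, and 21.0 CPM with Inf. The groups were far apart, although the control values rested on 35 to 42 counts. The log2 fold change of Lum was 3.31 ± 0.14 (SE, edgeR quasi-likelihood test, adjusted p = 2.2e-18). Fibromodulin, which binds collagen and directs its cross-linking by lysyl oxidase, had 4.29, 3.41, and 4.44 CPM in control and 0.465, 0.633, and 0.364 CPM with Inf. Only 6 to 13 counts were left in an Inf library. The log2 fold change of Fmod was −3.01 ± 0.29 (adjusted p = 6.2e-10), with rank 18 from the lowest of 14810 genes. Prelp, a basic protein that anchors matrix to basement membrane proteoglycans, had 17.4, 17.4, and 19.3 CPM in control and 16.9, 17.7, and 16.9 CPM with Inf. These ranges overlapped, and its log2 fold change was −0.07 ± 0.088 (adjusted p = 0.57).

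Osteoglycin, a class III SLRP that also binds fibrillar collagen, had 133, 136, and 122 CPM in control. With Inf it had 26.5, 32.8, and 33.6 CPM, so all Inf libraries lay well below control, at a log2 fold change of −2.06 ± 0.069 (SE, edgeR quasi-likelihood test, adjusted p = 1.9e-20). Podocan, a class V member that binds type I collagen, had 0.457, 1.05, and 0.480 CPM in control and 0.864, 0.877, and 0.364 CPM with Inf. The ranges overlapped, and with 6 to 18 counts in these libraries the SE of its log2 fold change of 0.10 was 0.47, so that even a change of 1 on this scale could be missed at this depth.

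**Figure D2:**
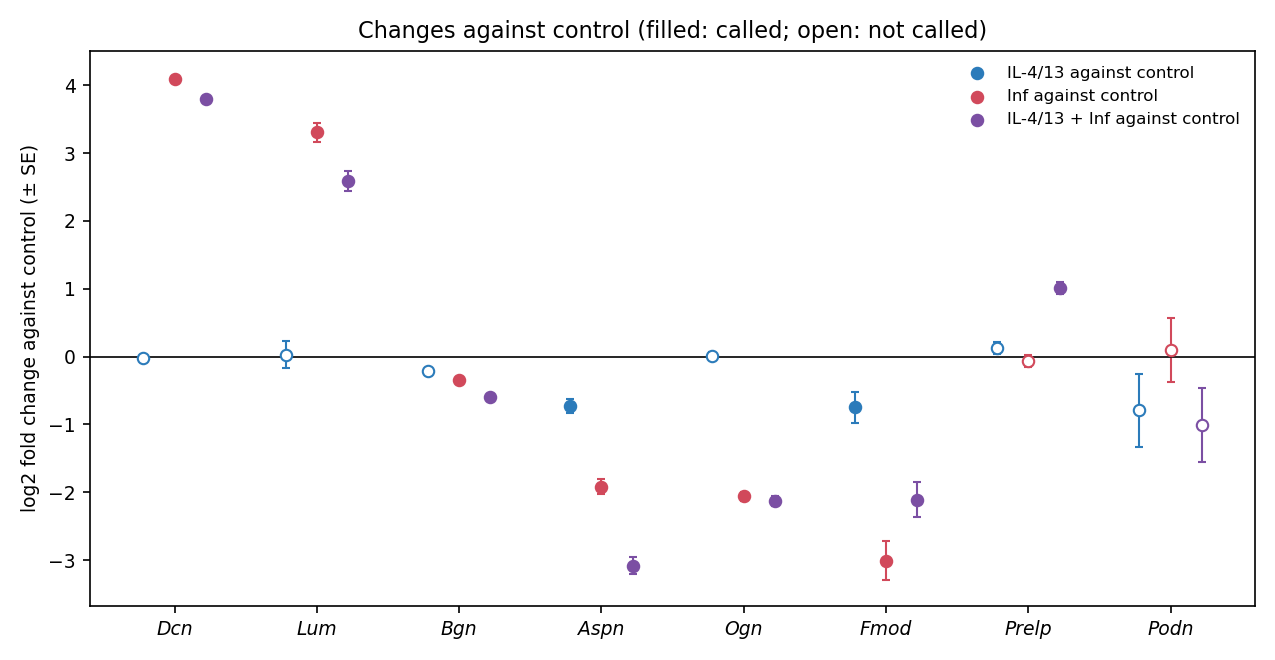
The vertical axis is the log2 fold change against control with its SE, and the 8 SLRP genes are on the horizontal axis, with 1 point for each treated condition. Filled points were called and open points were not. Dcn at 4.09 and 3.80 and Lum at 3.31 and 2.59 are the high points with Inf and with IL-4/13 + Inf, and Aspn at −3.08 with IL-4/13 + Inf is the lowest.

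IL-4/13 alone changed few SLRP transcripts. Asporin and fibromodulin fell by factors of 1.66 and 1.68, and none of the 8 genes was upregulated. The share of all tested genes called was 2.57% downward and 2.78% upward, and the median log2 fold change was −0.12 over the 8 genes and 0.00 over all genes. At an unadjusted p below 0.05 there were 3 genes, Aspn, Fmod, and Bgn, all downward, where 10.4% of all tested genes passed downward and 10.6% upward, and DESeq2 likewise upregulated 0. Aspn had 110.5, 97.5, and 112 CPM with IL-4/13, all below its lowest control library of 161 CPM. Its log2 fold change was −0.73 ± 0.10 (SE, edgeR quasi-likelihood test, adjusted p = 6.2e-04). Fmod had 2.63, 2.20, and 2.35 CPM, also below every control library, at −0.75 ± 0.23 (adjusted p = 0.038). This call was close to the threshold. It was lost without control replicate 1 or 3 (adjusted p = 0.14 each) or IL-4/13 replicate 1 (0.076), 2 (0.13), or 3 (0.10), and also with DESeq2 (0.061), with a block for replicate number (0.058), and with no filter on low counts (0.062).

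Biglycan, at 3246, 3069, and 3133 CPM with IL-4/13, lay below every control library. Its log2 fold change of −0.21 ± 0.035 had an adjusted p of 1.2e-04 (edgeR quasi-likelihood test) but did not reach the fold threshold of 0.25. Decorin had 106, 98.7, and 99.7 CPM, overlapping the control libraries, with a log2 fold change of −0.02 ± 0.045. The corresponding values were 0.01 ± 0.062 for Ogn, 0.03 ± 0.20 for Lum, and 0.13 ± 0.088 for Prelp. The groups of these genes overlapped, as did those of Podn, whose value of −0.79 ± 0.54 rested on 3 to 8 counts with IL-4/13.

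In the presence of Inf, the addition of IL-4/13 raised Prelp and lowered decorin, lumican, asporin, and biglycan. Prelp rose 2.11-fold, whereas asporin fell by a factor of 2.23, lumican by 1.66, decorin by 1.22, and biglycan by 1.19. Thus 1 gene was upregulated, where 7.55% of all tested genes were, and 4 were downregulated, where 7.00% were. The median log2 fold change was −0.27 over the 8 genes and −0.01 over all genes.

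Prelp had 38.3, 34.2, and 36.2 CPM with IL-4/13 + Inf, and every value lay above the Inf libraries. The log2 fold change against Inf was 1.08 ± 0.082 (SE, edgeR quasi-likelihood test, adjusted p = 2.3e-11), with rank 144 from the highest of 14810 genes. The antisense gene that overlaps Prelp had at most 2 counts in a library. Decorin, at 1455, 1415, and 1450.3 CPM, lay below every Inf library but stayed 14.0-fold above control, with a log2 fold change against Inf of −0.29 ± 0.040 (adjusted p = 2.4e-06). Lumican had 12.9, 14.1, and 13.6 CPM, all between its control and Inf levels, at −0.73 ± 0.11 (adjusted p = 6.6e-06). Asporin fell further, to 18.1, 19.0, and 26.7 CPM, at −1.16 ± 0.13 (adjusted p = 3.5e-05). Its coefficient of variation in this condition, 22.2%, was its highest of the 4 conditions.

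The fall in biglycan, to 2444, 2352, and 2430.2 CPM, had a log2 fold change of −0.25 ± 0.035 (SE, edgeR quasi-likelihood test, adjusted p = 2.2e-06) and sat just past the fold threshold. It was −0.24 without Inf replicate 2, Inf replicate 3, or IL-4/13 + Inf replicate 2, and was then not called. The call was also lost with no filter on low counts, where the value stayed at −0.25 when rounded (adjusted p = 2.1e-09). Fibromodulin had 0.893, 0.899, and 1.01 CPM, above every Inf library, but on 15 to 18 counts its log2 fold change of 0.89 ± 0.36 did not pass (adjusted p = 0.073). Osteoglycin, at 30.2, 28.4, and 30.2 CPM, was within the range of the Inf libraries, at −0.07 ± 0.076. Podn, at 5 to 7 counts, had a value of −1.11 ± 0.53 and was not called (adjusted p = 0.14).

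Whether IL-4/13 acted differently with Inf than without it was tested by the interaction term, which subtracts the log2 response without Inf from that with Inf. The response was higher with Inf for Prelp and Fmod and lower with Inf for Dcn. These were 2 genes upward, where 1.52% of all tested genes passed, and 1 downward, where 1.59% passed, and the median was −0.17 over the 8 genes and 0.00 over all genes. For Prelp, the difference of 0.95 ± 0.12 (SE, edgeR quasi-likelihood test, adjusted p = 4.3e-06) lay between 0.90 and 1.00 with any library left out. For Fmod, the response was −0.75 without Inf and 0.89 with it, a difference of 1.65 ± 0.43 (adjusted p = 0.023). This call was lost without control replicate 1 (0.053) or 3 (0.058), IL-4/13 replicate 2 (0.051), Inf replicate 3 (0.051), or IL-4/13 + Inf replicate 3 (0.056), and DESeq2 gave Fmod no adjusted p for this term.

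The decorin difference was small, at −0.26 ± 0.060 (SE, edgeR quasi-likelihood test, adjusted p = 0.0080), and dropped under the fold threshold at −0.24 without control replicate 3, −0.23 without IL-4/13 replicate 1, and −0.22 without Inf replicate 3. For Lum the difference of −0.76 ± 0.23 was not called (adjusted p = 0.065). It passed without IL-4/13 replicate 2 (−0.92, adjusted p = 0.029) and without Inf replicate 3 (−0.80, adjusted p = 0.041). For Aspn the difference of −0.42 ± 0.16 was not called either (adjusted p = 0.24), although it passed without IL-4/13 + Inf replicate 3, its highest library of that condition (−0.60, adjusted p = 6.1e-04), and with no filter on low counts (adjusted p = 5.6e-04). The differences for Bgn, Ogn, and Podn were −0.05 ± 0.050, −0.08 ± 0.098, and −0.32 ± 0.77.

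**Figure D3:**
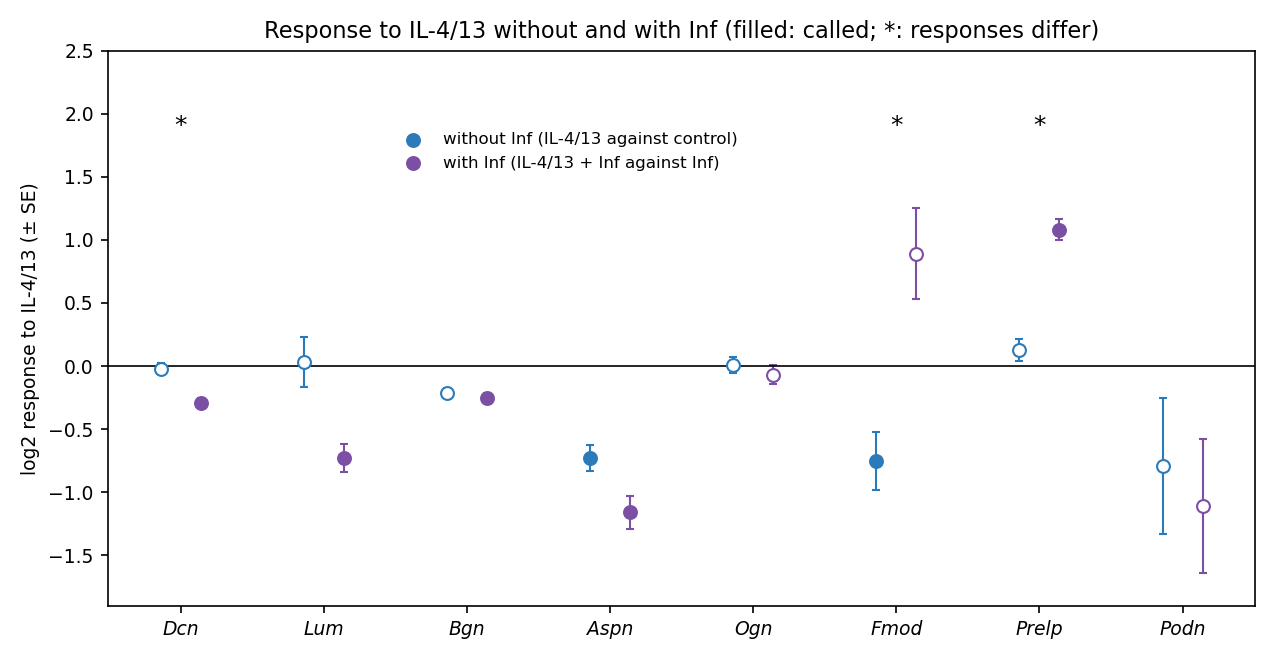
The vertical axis is the log2 response to IL-4/13 with its SE for each of the 8 SLRP genes, without Inf (IL-4/13 against control) and with Inf (IL-4/13 + Inf against Inf). Filled points were called, and an asterisk marks a gene whose 2 responses differed by the interaction term. The Prelp points, at 0.13 and 1.08, and the Fmod points, at −0.75 and 0.89, are farthest apart.

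With all 5 cytokines, 7 of the 8 SLRP genes differed from control. Dcn, Lum, and Prelp were upregulated, at log2 fold changes of 3.80 ± 0.046, 2.59 ± 0.15, and 1.01 ± 0.082 (SE, edgeR's quasi-likelihood test), and 13.4% of all tested genes were. Aspn, Ogn, Fmod, and Bgn were downregulated, at −3.08 ± 0.12, −2.13 ± 0.070, −2.11 ± 0.26, and −0.59 ± 0.035, and 11.5% of all tested genes were. The largest adjusted p of these 7 was that of Fmod, at 8.4e-08. Asporin, 8.44-fold lower than control, had rank 20 from the lowest of 14810 genes. The median log2 fold change was −0.80 over the 8 genes and 0.00 over all genes.

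When the reference was IL-4/13 instead of control, Inf again raised decorin 14.2-fold and lumican 5.88-fold and lowered asporin, osteoglycin, and fibromodulin by factors of 5.07, 4.41, and 2.57. The count was 3 genes up, where 13.3% of all tested genes were called, and 4 down, where 11.0% were, and the medians were −0.30 and 0.00. Prelp rose 1.84-fold (log2 fold change 0.88 ± 0.082, edgeR quasi-likelihood test, adjusted p = 3.2e-10) and biglycan fell by a factor of 1.31 (−0.39 ± 0.035, adjusted p = 1.9e-10). Podn, at −0.22 ± 0.61, was not called. The comparisons above share libraries, so their values for a gene are not independent of each other.

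The make-up of the SLRP transcripts shifted toward decorin with Inf. The summed level of the 8 genes was 747 ± 18.0 CPM per kilobase in control, 637 ± 19.9 with IL-4/13, 818 ± 21.1 with Inf, and 678 ± 13.3 with IL-4/13 + Inf (SD, n = 3 each). The order of these sums depended on the exon length used. With the longest transcript as length, the mean levels of the 8 genes added up to slightly less with Inf than in control. They also added up to less with IL-4/13 + Inf than with IL-4/13, so a rise of the sum with Inf was not established. Decorin, ranked 4 of the 8 genes without Inf, was ranked 2 with it, at 301 ± 12.3 CPM per kilobase with Inf and 247 ± 3.76 with IL-4/13 + Inf. Its share of the sum was 2.37% ± 0.135 in control, 2.73% ± 0.0464 with IL-4/13, 36.8% ± 0.811 with Inf, and 36.4% ± 0.178 with IL-4/13 + Inf. The libraries with Inf held 36.0% to 37.6% decorin, and those without it 2.28% to 2.76%. Biglycan's share was 79.8% ± 1.11 in control and 57.6% ± 0.630 with Inf, and the ratio of biglycan to decorin per kilobase was 33.7 ± 2.18 in control, 29.7 ± 0.345 with IL-4/13, 1.57 ± 0.0516 with Inf, and 1.60 ± 0.00862 with IL-4/13 + Inf. With the longest transcript as length, the share of decorin was 1.45% in control and 25.0% with Inf.

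**Figure D4:**
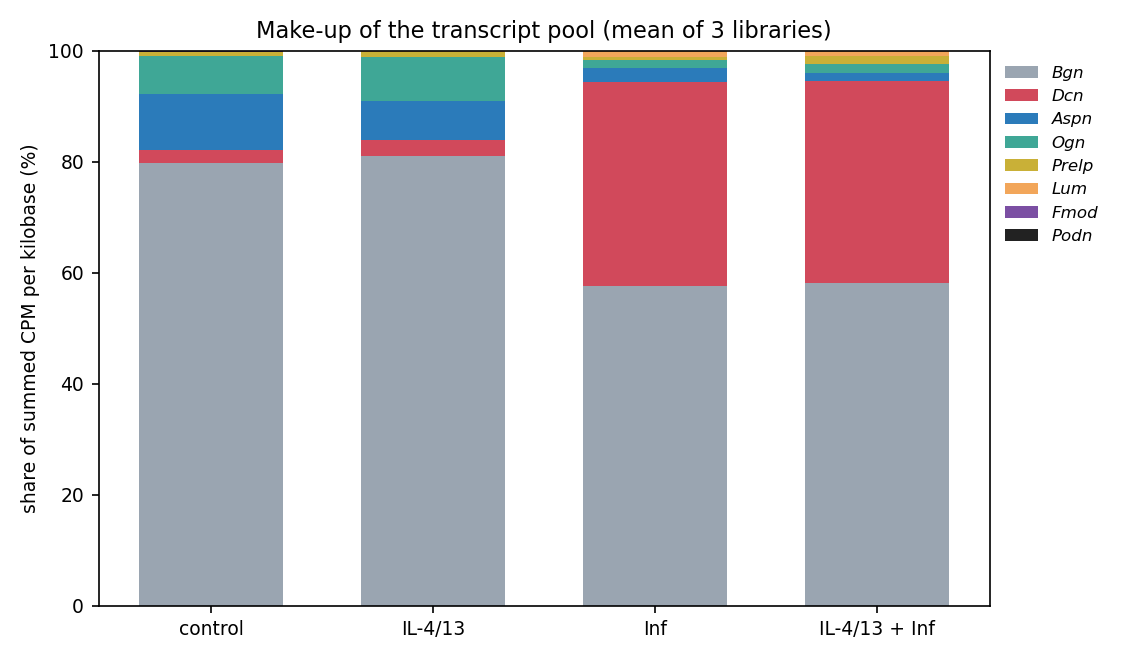
Stacked bars show, for each condition, the share in percent of the summed CPM per kilobase held by each of the 8 SLRP genes (mean of 3 libraries). Decorin makes up 2.37% of the control bar and 36.8% of the Inf bar, and the Aspn and Ogn bands are narrow in both conditions with Inf.

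Neighbouring SLRP genes moved together in some clusters and comparisons and apart in others. On chromosome 10, Dcn and Lum both rose with Inf, whereas Kera, a corneal keratan sulfate proteoglycan, and Epyc, a cartilage member, had at most 2 and 5 counts in any library. On chromosome 13, Aspn and Ogn both fell with Inf, but IL-4/13 lowered Aspn while Ogn was not called, and the ratio of Ogn to Aspn per kilobase was 0.674 ± 0.0264 in control, 1.13 ± 0.0339 with IL-4/13, 0.610 ± 0.0951 with Inf, and 1.32 ± 0.252 with IL-4/13 + Inf (SD, n = 3 each). Omd, between them, and Ecm2, before Aspn, stood at 0.405 to 1.39 CPM and 0.662 to 1.16 CPM across conditions, with 5 to 34 counts in a library. Omd was lower with IL-4/13 + Inf than with IL-4/13 (log2 fold change −1.75 ± 0.45, edgeR quasi-likelihood test, adjusted p = 0.0026). It was not called for Inf against control (adjusted p = 0.088). On chromosome 1, Inf lowered Fmod while Prelp was not called, and the ratio of Prelp to Fmod per kilobase was 4.11 ± 0.490 in control and 33.7 ± 8.43 with Inf. Optc, beside Prelp, stood at 1.57 ± 0.557 CPM in control and 0.451 ± 0.106 CPM with Inf (log2 fold change −1.76 ± 0.40, edgeR quasi-likelihood test, adjusted p = 5.9e-04). Only 5 to 11 counts of Optc were left in an Inf library. IL-4/13 added to Inf raised Optc by 1.28 ± 0.42 on the log2 scale (edgeR quasi-likelihood test, adjusted p = 0.024). In that comparison Prelp stood at 1.08 and Fmod, not called, at 0.89. Annotated transcripts were searched on their own strand only for 50-base stretches shared with the longest transcript of each member. None was shared with another gene for 7 members. For Podn 0.362% were, and the genes sharing them included Bgn, through a transcript other than its longest.

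Most other SLRP genes were at low levels in these cells. Of 10 other members listed, 6 passed the filter, and with Inf 2 of them were upregulated and 1 was downregulated (median log2 fold change −0.13, against 16.3% and 15.3% of all genes called). Tsku (tsukushi), a secreted modulator of BMP and Wnt signalling, rose from 38.4 ± 2.34 to 62.2 ± 0.931 CPM (log2 fold change 0.70 ± 0.065, edgeR quasi-likelihood test, adjusted p = 2.5e-10). Podnl1, the relative of podocan, rose from 40.0 ± 1.56 to 51.3 ± 1.88 CPM (0.36 ± 0.063, adjusted p = 2.3e-05).

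Enzymes that build the sugar chains of SLRPs changed in both directions. Of 18 tested genes for the linker and for chondroitin and dermatan sulfate, Inf upregulated 2 and downregulated 7 (median log2 fold change −0.18, against 0.01 over all genes), where 16.3% and 15.3% of all tested genes were called. IL-4/13 without Inf upregulated 1 of the 18, where 2.78% of all genes were. Chst11, a chondroitin 4-sulfotransferase, rose with IL-4/13 (0.53 ± 0.065 on the log2 scale, edgeR quasi-likelihood test, adjusted p = 7.9e-07) and with Inf (0.63 ± 0.065, adjusted p = 1.8e-09). Chsy1, a chondroitin synthase, and Ust, which sulfates uronic acid, fell with Inf by 0.44 ± 0.058 and 0.42 ± 0.081 on the log2 scale. Of 6 tested keratan sulfate genes, the count downregulated was 2 with IL-4/13, 2 with Inf, and 4 with IL-4/13 + Inf, each against control, where 2.57%, 15.3%, and 11.5% of all tested genes were downregulated. Chst1, the keratan sulfate galactose sulfotransferase, stood at 40.4 ± 1.96 CPM in control, 31.9 ± 3.66 with IL-4/13, 17.1 ± 1.61 with Inf, and 13.2 ± 1.38 with IL-4/13 + Inf, and Chst2, an N-acetylglucosamine sulfotransferase, at 34.0 ± 1.11, 25.1 ± 0.570, 23.4 ± 2.03, and 15.2 ± 1.37 CPM in the same order (SD, n = 3 each).

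Inf changed 10 of 12 tested genes in a list of proteases and processing factors that act on SLRPs. Of these, 6 were upregulated and 4 downregulated (median of the 12 genes 0.30), against 16.3% and 15.3% of all genes. The matrix metalloproteinases Mmp3 and Mmp13 rose from 23.5 ± 1.88 to 1375 ± 92.8 CPM and from 0.757 ± 0.178 to 108 ± 7.26 CPM. Adamts4 rose by 1.72 ± 0.094 on the log2 scale (SE), whereas the related proteoglycanases Adamts1 and Adamts5 fell with Inf by 1.37 ± 0.061 and 0.83 ± 0.059 on the log2 scale. IL-4/13 added to Inf raised both again, to 136 ± 5.98 and 81.3 ± 4.79 CPM. Of 16 tested genes in a list of receptors and growth factors linked to SLRPs, Inf upregulated 7 and downregulated 2 (median 0.25), against the same 16.3% and 15.3% of all genes. Tlr2 rose from 39.3 ± 2.04 to 288 ± 12.2 CPM and Cd14, a co-receptor for it, from 14.9 ± 1.49 to 44.7 ± 6.81 CPM, while Tgfbr2, the type II TGF-β receptor, fell from 219.7 ± 6.24 to 115 ± 4.07 CPM. With IL-4/13 + Inf, Tlr2 stood at 140.2 ± 5.87 CPM, lower than with Inf by a log2 fold change of −1.04 ± 0.054 (edgeR quasi-likelihood test, adjusted p = 5.2e-15).

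Among the transcripts listed as fibril partners of SLRPs, fibrillar collagens fell with IL-4/13, type VI collagen fell with Inf, and lysyl oxidase rose with both treatments. Of 14 tested fibril partners, Inf upregulated 3 and downregulated 8 (median −0.48), and IL-4/13 upregulated 2 and downregulated 5 without Inf (median −0.21). The shares of all tested genes called up and down were 16.3% and 15.3% with Inf and 2.78% and 2.57% with IL-4/13. The largest called falls with IL-4/13 were those of the fibrillar collagen genes Col3a1, Col5a1, and Col1a1. Their log2 fold changes were −0.48 ± 0.047, −0.43 ± 0.11, and −0.38 ± 0.089. The type VI collagen genes Col6a1, Col6a2, and Col6a3 fell with Inf by 0.99 ± 0.048, 1.53 ± 0.052, and 1.58 ± 0.17 on the log2 scale. Lox, the collagen cross-linking enzyme, rose with IL-4/13 from 954 ± 17.8 to 1880.0 ± 4.06 CPM and with Inf to 1556 ± 60.2 CPM, which are log2 fold changes of 0.98 ± 0.036 and 0.71 ± 0.036 (both SE).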

How the data were processed

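Bulk RNA-seq of 3T3-L1 fibroblasts was analysed, with 3 libraries in each of 4 conditions. The authors extracted RNA with a column kit, prepared stranded mRNA libraries, and deposited raw counts per gene, which are whole numbers without normalization. The submitters' processing notes name STAR, featureCounts, and GRCm39. Their versions, the annotation, and the strand setting of the counting are not given in the sources used here, so reads of a gene and its antisense partner may not be separated. Of 56941 identifiers, 23268 had no symbol in the table. Missing symbols were filled from a table of gene names, which held 51948 of the identifiers, and 133 tested genes remained without a symbol.

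The counts were analysed with R 4.3.3, edgeR 4.0.16, limma 3.58.1, and DESeq2 1.42.0, and with matplotlib 3.10.9, numpy 2.4.6, and pandas 2.3.3 in Python 3.11.15. The filter filterByExpr (minimum count 10, minimum total 15) left 14810 genes. Counts were scaled with TMM, and the 12 libraries entered a single robust quasi-likelihood fit with a coefficient per condition. The p-values were adjusted by Benjamini-Hochberg over all tested genes within each of 6 contrasts. The SE is the log2 fold change divided by the square root of the F statistic. The study's methods name DESeq2 for these libraries, which was an alternative here, and the thresholds (adjusted p 0.05, log2 fold change 0.25) are those given for its pseudobulk comparison. CPM uses an effective library size, the sum over tested genes times the TMM factor. The SD is between libraries of a condition, and total counts of 13446005 to 20775769 per library left low genes such as Podn and Fmod imprecise. Exon lengths are unions of GENCODE M21 exons (GRCm38), known for 14614 tested genes. Promoter windows are from RefSeq (GRCm38.p6), matched by symbol for 6 of the 8 members. Sequences were otherwise read from no genome, since the deposited build differs.

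The members and gene lists were chosen with earlier results of these data known. All 8 members are named in every contrast. From each list at most the 3 largest rises and 3 largest falls among called genes with at least 5 CPM in 1 group are named, and neighbours are named for their position. The edgeR fit was tested on simulated counts for Inf against control. The alternatives were DESeq2, its size factors in edgeR, scaling by library size, testing of every gene or of those with a mean of at least 50 counts, a fit of the compared libraries alone, a replicate block, omission of each library, fold thresholds of 0 and 1 (log2), an adjusted p of 0.01, and the longest transcript as length. The replicate numbers did not pair the libraries. No pair of libraries agreed within sampling noise. The single-cell, protein, and animal experiments were not analysed here.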

Additional observations from a re-analysis of the deposited data

Results flagged for a closer look

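The response to IL-4/13 differed between cells with and without Inf, by a test of that difference in edgeR, for 3 of the 8 SLRP genes and for 8 of the 72 tested genes in the lists around them (3 upward and 5 downward, where 1.52% and 1.59% of all tested genes were called). The 8 lie in 3 of the 6 lists. Among the SLRPs, the log2 response with Inf minus that without it was 0.95 for Prelp (adjusted p = 4.3e-06), 1.65 for Fmod (0.023), and −0.26 for Dcn (0.0080). Of 12 fits that each left out 1 library, the call held in 12 for Prelp, 9 for Dcn, and 7 for Fmod. Among the proteases, the differences were 0.64 for Adamts1 (2.4e-05), 0.31 for Adamts5 (0.026), and −0.36 for Mmp2 (6.3e-04). In the list of receptors and growth factors, they were −0.96 for Tlr2 (7.4e-09), −0.53 for Tlr4 (0.019), and 0.28 for Tgfbr2 (0.0089). Among the fibril partners, they were −0.29 for Col6a1 (0.0096) and −0.57 for Lox (7.1e-09). Lox rose with IL-4/13 in both settings, by 0.98 without Inf and 0.41 with it, so the difference is one of size and not of direction. With 3 libraries in each condition, single libraries far from the others were not tested for.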

How the results depend on the processing

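Of the 12 counts of called SLRP genes, those of the 3 comparisons between cells with and without Inf stayed within 1.5 times under every alternative. The count downregulated by IL-4/13 against control, 2 as reported, was 1 with DESeq2, no filter, a mean of at least 50 counts, the replicate block, or an adjusted p below 0.01, and 0 at a log2 threshold of 1. For the interaction, the 2 genes upward became 1 with DESeq2, with a mean of at least 50 counts, at a log2 threshold of 1, and at an adjusted p below 0.01, and the 1 downward became 2 with no filter and 0 at a log2 threshold of 1. The 4 genes downregulated by IL-4/13 + Inf against Inf became 1 at that threshold. A mean of at least 50 counts left Fmod and Podn untested. With each library left out in turn, these counts ranged from 1 to 2 for IL-4/13 downward, from 1 to 2 for the interaction upward, and from 0 to 2 downward, and 130 of 144 such counts stayed within 1.5 times.

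A direction turned for 13 values, each from a fit without 1 library and none of them called. Against control with IL-4/13, the log2 fold change ranged from −0.22 to 0.19 for Lum, from −0.04 to 0.04 for Ogn, and from −0.06 to 0.01 for Dcn. For Podn it ranged from −0.11 to 0.59 with Inf, from −0.52 to 0.15 for IL-4/13 + Inf against IL-4/13, and from −0.81 to 0.05 for the interaction. No such turn occurred for a called gene. TMM differed from library size alone by at most 0.024 and from DESeq2's size factors by at most 0.005 on the log2 scale. Same-numbered libraries did not deviate together (18 pairs, correlations −0.15 to 0.05), and 0 of 12 libraries correlated best with its own number, so the replicate block, under which Fmod with IL-4/13 had an adjusted p of 0.058, is given only as an alternative. It changed no other SLRP call.

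Over all genes, the counts moved by over 1.5 times only with the thresholds. Without a fold threshold, 667 genes rose and 607 fell with IL-4/13, 1818 rose with IL-4/13 + Inf against Inf, and 2471 fell against IL-4/13. At a log2 threshold of 1, the counts up and down were 87 and 21 with IL-4/13, 786 and 309 with Inf, 714 and 382 with IL-4/13 + Inf, 133 and 105 against Inf, 630 and 306 against IL-4/13, and 17 and 23 for the interaction. At an adjusted p below 0.01, 245 fell with IL-4/13 and the interaction counts were 129 and 148.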

Other observations

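For each SLRP gene, the tested genes whose log2 CPM ran most nearly parallel over the 12 libraries were looked up, with Pearson's r as the measure of likeness. The libraries fall into 4 conditions, so r mostly reflects 4 means. Dcn ran closest to Slpi, a secreted peptidase inhibitor (0.9997), and to Sod2, the mitochondrial superoxide dismutase (0.9994). Slpi stood at 7.78 CPM in control, 7.28 with IL-4/13, 222 with Inf, and 176 with IL-4/13 + Inf. Lum ran closest to Tnfaip3, which restrains NF-kB signalling (0.9955), at 12.3, 14.0, 84.0, and 62.7 CPM in the same order, and to Gm16439 (0.9952). Among the genes that fell, Aspn was nearest to Itgbl1 (0.9931) and to Edil3, a matrix ligand of integrins (0.9894). Itgbl1 stood at 75.1, 39.0, 11.6, and 5.40 CPM. Bgn was nearest to the homeobox gene Prrx2 (0.9912) and to Tcf7l1 (0.9888), Ogn to the splicing regulator Mbnl1 (0.9933) and Ahcyl1 (0.9933), and Fmod to Aldh18a1 and Phgdh, enzymes of proline and serine synthesis (0.9913 and 0.9877). Prelp was nearest to Rai14, which binds actin (0.9765), at 238, 259, 245, and 351 CPM, and to Lpcat4 (0.9765). For Podn, the values were lower, 0.8169 for 1700001O22Rik and 0.8007 for Rufy2. A parallel course over 4 conditions says nothing of shared function or control.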
